A study of Anguilla anguilla with 6 samples.

Results

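Proteases that cut the extracellular matrix, and the proteins that hold them in check, were followed in the ovaries of hormone-treated European eels (Anguilla anguilla). The members are the gene models of the authors' deposited table whose description names a matrix metalloproteinase or collagenase, a disintegrin and metalloproteinase, an ADAMTS or ADAMTS-like protein, a metalloproteinase inhibitor or a plasminogen activator. There are 127 of them among 45974 gene models. The study sequenced the ovarian mRNA of 6 eels from a commercial farm, all of which had received 4 weekly injections of gonadotropins, and by its phenotype label 4 of the animals were responders and 2 non-responders. Strain, genotype and age are not stated in the labels, and neither is what counted as a response. Each animal gave 1 library from pooled pieces of the anterior, middle and posterior gonad. The table gives a mean scaled count per group (counts divided by a size factor per library), a fold and a p per model, and values per library were not used here, because the columns that hold them carry no label of a library. No SD is therefore given. Every log2 value takes responders over non-responders.

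Matrix metalloproteinases (MMPs) are zinc enzymes, secreted or held in the cell membrane, that digest collagens and other matrix proteins after loss of an inhibitory propeptide. ADAMs are membrane proteases that release the outer parts of cell-surface proteins, and ADAMTS enzymes are secreted relatives that cut proteoglycans and procollagens. Tissue inhibitors of metalloproteinases (TIMPs) block the active sites of these enzymes, while plasminogen activators make plasmin, a serine protease that can activate MMPs. In vertebrate ovaries these systems are known for the remodelling of the follicle wall during growth and ovulation.

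One member differed between the groups, and the others did not pass the test. ADAMTS-like 3 (ADAMTSL3) fell in responders. At an unadjusted p under 0.05, 1 model each of TIMP2, TIMP4, ADAM22 and MMP17 had a higher mean in responders. At the same threshold 1 model each of ADAMTS15 and MMP13 had a lower one. None of these passed the adjustment over all models. Further models of TIMP2 (g20796, 216 in non-responders and 204 in responders) and MMP13 (g8689, 10.1 and 19.8) went the other way. Further MMP17 models, all with a mean under 5, lay on both sides of a ratio of 1. Several abundant members, among them ADAM10, ADAM17, MMP2, MMP14, ADAMTS7 and ADAMTS17, had group means within 1.5 times of each other in their most abundant models. The authors' deposited table gives a p for 110 members, of which 1 was called at an adjusted p under 0.05 (0.909%), against 0.183% of all models with a p. That member fell, as did 0.062% of all models with a p. At an unadjusted p under 0.05 there were 7 members, which is 6.36% against 3.67% of all models with a p. Of the 7, 4 were higher and 3 lower in responders, where 2.07% of all models with a p were higher and 1.59% lower. Once a mean of 5 scaled counts or more was required, the shares were 14.9% of 47 members and 5.61% of all models. Among the 7, ADAMTS15 (g11138) and MMP13 (g23807) reached that mean with a responder mean under 5. The members were also chosen with earlier results of these data known, so these shares are no test of the members as a set. The 7 members are read here as values only, since no more than 1 passed the adjustment.

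The 127 members fall into 34 models of MMPs, 34 of ADAMs, 47 of ADAMTS and ADAMTS-like proteins, 4 of TIMPs and 5 of the plasminogen activator system. The remaining 3 are models of SERBP1, an RNA-binding protein that is neither a protease nor an inhibitor and entered through the words of its description. Names come from the best protein match. Apart from 1 model without a name, described as MMP28, they carry 53 names, and several models can share a name. ADAM19 had the most, with 7 models from 194 to 4240 bases long, and MMP14 and ADAMTS3 had 6 each. Of all members 39 were shorter than 500 bases, and 4 of these reached a mean of 5.

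Many members were at the edge of detection. The authors' deposited table listed 17 at 0 in both groups and gave 63 a mean above 0 and under 5, which leaves 47 above that mean. A further feature of the low members was detection in 1 group only. The authors' deposited table listed 19 above 0 in responders only, with a highest mean of 2.01 (an ADAMTS2 model, g35280), and 3 in non-responders only. The responder mean pools 4 libraries and the non-responder mean 2, and over all models the corresponding counts were 3616 and 1052. Of the 47 members that reached a mean of 5, 4 did so with 1 group mean under 5, namely ADAMTS15 (g11138), MMP13 (g23807), ADAMTS20 (g30408) and ADAM22 (g4229). The median log2 of the 47 was 0.18, with 28 above and 19 below a ratio of 1, against a median of 0.01 over the 23266 models with such a mean. The plot of log2 against the mean places these members among all models.

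**Figure D1:**
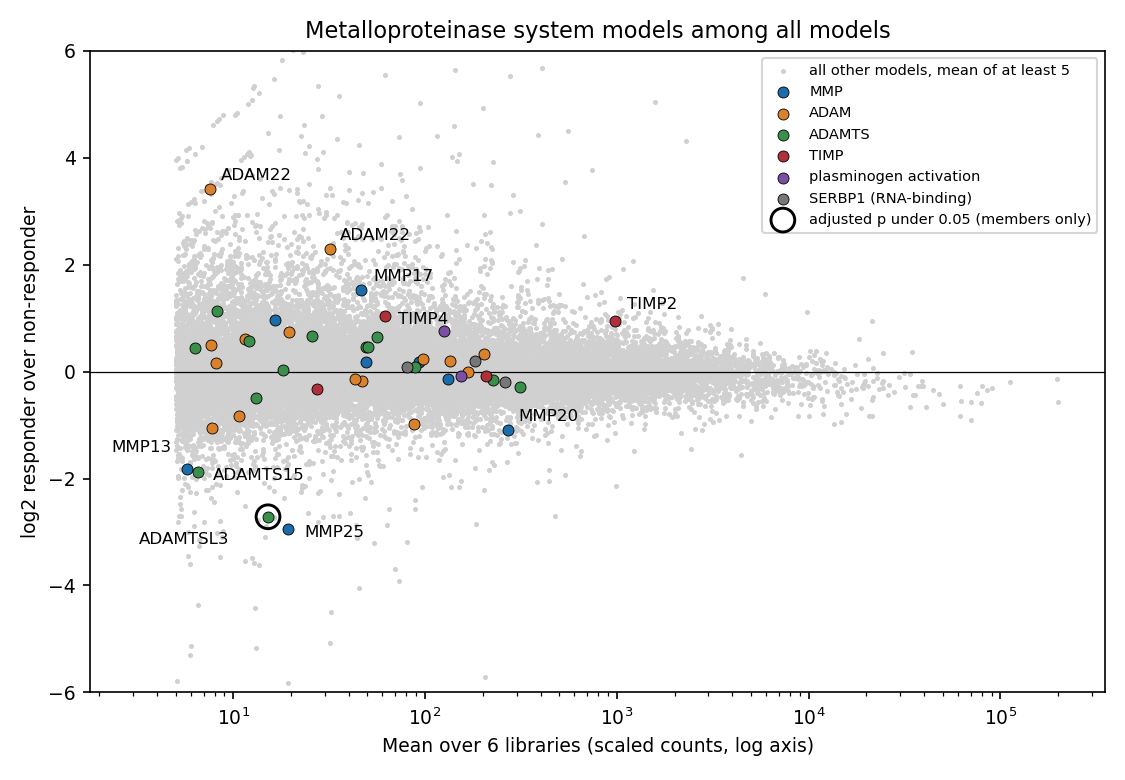
Each point is a gene model, with its mean over the 6 libraries (scaled counts, log axis) against the log2 of responder over non-responder; grey points are other models with a mean of at least 5, of which 11 lie outside the axis, and coloured points are 46 of the 47 members by role. The ringed point, ADAMTSL3 at log2 -2.71, is the member past the adjusted threshold, and MMP25 lies next to it at -2.94 without passing.

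ADAMTSL3 is a secreted matrix glycoprotein that resembles ADAMTS enzymes and lacks their protease domain. Its model (g549, 6940 bases) had a similarity of 0.45 to the best protein match, where the median over the members was 0.60. By the authors' deposited table this model had 34.9 scaled counts in non-responders against 5.32 in responders. The responder mean was 6.57-fold lower (log2 -2.71, the authors' adjusted p = 0.010), and it ranked 47 of 37072 models by its p. Its mean over all libraries is 15.2, so a minimum mean of 20 leaves the model out. It was still called with p re-adjusted over the models with a mean of at least 5, where 82 of 23266 models were called. None of the other ADAMTS-like models passed. ADAMTSL1 (g7807) had 17.9 scaled counts in non-responders against 18.2 in responders, and ADAMTSL5 (g3805) had 40.9 against 64.3 (log2 0.65, unadjusted p = 0.16), both by the authors' deposited table. ADAMTSL2 (g162) stayed under the minimum mean, at 2.66 and 5.34.

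By scaled counts, the ADAMTS proteases were led by enzymes whose group means lay close together. ADAMTS17 (g2680) had 355 scaled counts in non-responders against 291 in responders by the authors' deposited table (log2 -0.29). A further ADAMTS17 model (g973) went the other way, at 39.4 and 53.8 (log2 0.45, the authors' unadjusted p = 0.33). ADAMTS7, which cuts cartilage oligomeric matrix protein in mammals, had 244 and 218 in its model g6005 (log2 -0.16). ADAMTS18 (g2035) had 85.5 and 90.8 (log2 0.09). None of these passed, with unadjusted p-values of 0.37, 0.85 and 0.93 for g2680, g6005 and g2035 by the authors' deposited table.

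Procollagen and proteoglycan cutting ADAMTS enzymes had lower scaled counts per model. Per kilobase and summed over models this order did not hold throughout. ADAMTS20 had 43.4 in non-responders and 81.3 in responders on that scale, against 64.3 and 56.5 for ADAMTS17. ADAMTS3, a procollagen N-proteinase in mammals, had its largest means in the models g13812, at 40.3 scaled counts in non-responders against 55.6 in responders, and g5009, at 16.2 against 11.5. These models of 1 name lay on opposite sides of a ratio of 1, and neither passed. ADAMTS15, a proteoglycan-degrading enzyme, had 12.8 and 3.46 in its model g11138 by the authors' deposited table (log2 -1.88, unadjusted p = 0.028, adjusted p = 1). ADAMTS20, which can cut versican in mice, had 4.62 and 10.1 in its short model g30408 (log2 1.13, the authors' unadjusted p = 0.24) and 18.5 and 29.4 in g25411. An ADAMTS19 piece of 222 bases (g35641) had 3.37 against 0.27, under the minimum mean.

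Ontology text links some ADAMTS members to egg release. The deposited ontology terms of 14 members contain the word ovulation, against 39 of all 45974 models, and they carry 8 ADAMTS names. Such terms are copied from the best protein match and are not a measurement in eels. ADAMTS1, which has a part in ovulation in mice, was low, with 9.06 scaled counts in non-responders against 13.5 in responders (g11275, unadjusted p = 0.85 by the authors' deposited table). Of the 14 members 3 were listed at 0 in both groups, 4 reached a mean of 5 and the highest mean was 25.8, that of ADAMTS20 (g25411). ADAMTS15 (g11138) was the one with an unadjusted p under 0.05.

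The ADAM sheddases ADAM10 and ADAM17 had the highest counts of their family. ADAM17, which releases tumour necrosis factor alpha and ligands of the EGF receptor in mammals, had 173 scaled counts in non-responders against 217 in responders in its model g10962 by the authors' deposited table (log2 0.33). A further ADAM17 model (g4790) had 168 and 167 (log2 -0.01, and 0.11 with both groups rescaled to equal sums). ADAM10, which cuts Notch receptors, had 124 and 142 in g2864 (log2 0.20) and 87.6 and 103 in g13001. The short ADAM10 piece g44221, of 122 bases, went the other way at 11.9 and 5.74 (log2 -1.05, unadjusted p = 0.18 by the authors' deposited table). None of the ADAM10 and ADAM17 models passed.

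ADAM22 stood at the upper end of the family's log2 values. In mammals ADAM22 has no protease activity and serves as a receptor for the secreted protein LGI1. Its longer model (g4227, 3900 bases) had 8.78 scaled counts in non-responders against 43.3 in responders by the authors' deposited table, 4.93-fold (log2 2.30, unadjusted p = 0.0066, adjusted p = 0.61). The model g4229 had 1.02 and 10.9 (log2 3.42, the authors' unadjusted p = 0.089). Both models lay above a ratio of 1, and neither passed the adjustment. ADAM9 had 131 and 65.97 in g7976 by the authors' deposited table (log2 -0.99, unadjusted p = 0.12), whereas its other model g8002 had 45.9 and 41.7. ADAM8, a leukocyte protein in mammals, was low in both models, with responder means of 13.0 (g27029) and 8.49 (g14970).

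The highest MMP level was that of a single short model. MMP20, the enamel protease of mammalian teeth, had 417 scaled counts in non-responders against 196 in responders by the authors' deposited table (g28015, 640 bases, log2 -1.08, unadjusted p = 0.078). This made up 51.0% of the summed MMP counts in non-responders and 32.8% in responders. Per kilobase of transcript its level was 651 and 307, and its shares of the summed MMP level were 71.4% and 52.4%. Its similarity to the best protein match was 0.71, on a scale that reaches 1 in the table. Without this model the summed MMP level was 261 scaled counts per kilobase in non-responders against 279 in responders.

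The gelatinase MMP2 and its membrane-bound activator MMP14 had group means close to each other. MMP2 (g6604) had 140.0 scaled counts in non-responders against 127 in responders by the authors' deposited table (log2 -0.14), and MMP14 (g28696) had 85.2 and 97.1 (log2 0.19). Their unadjusted p-values were 0.72 and 0.79. MMP9, the other gelatinase, was under the minimum mean with 3.45 and 0.65 (g12711).

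Among the MMP models with a mean of at least 5, those with the widest ratios between group means were not called. MMP25, a membrane-anchored MMP of leukocytes in mammals, had 45.9 scaled counts in non-responders against 5.97 in responders by the authors' deposited table, 7.70-fold lower in the latter (g18620, log2 -2.94). These means are near those of ADAMTSL3, yet the deposited unadjusted p was 0.13 against 1.3e-05. MMP17, anchored to the membrane by a lipid, had 20.6 and 59.4 (g24694, log2 1.53, the authors' unadjusted p = 0.041, adjusted p = 1). MMP13, a collagenase, had models on both sides of a ratio of 1, at 10.9 against 3.10 for g23807 (log2 -1.82, unadjusted p = 0.044) and 10.1 against 19.8 for g8689 (log2 0.97, unadjusted p = 0.49), all by the authors' deposited table. Summed, the MMP13 models had 21.0 and 22.9. Whether models of 1 name differ from each other was not tested.

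**Figure D2:**
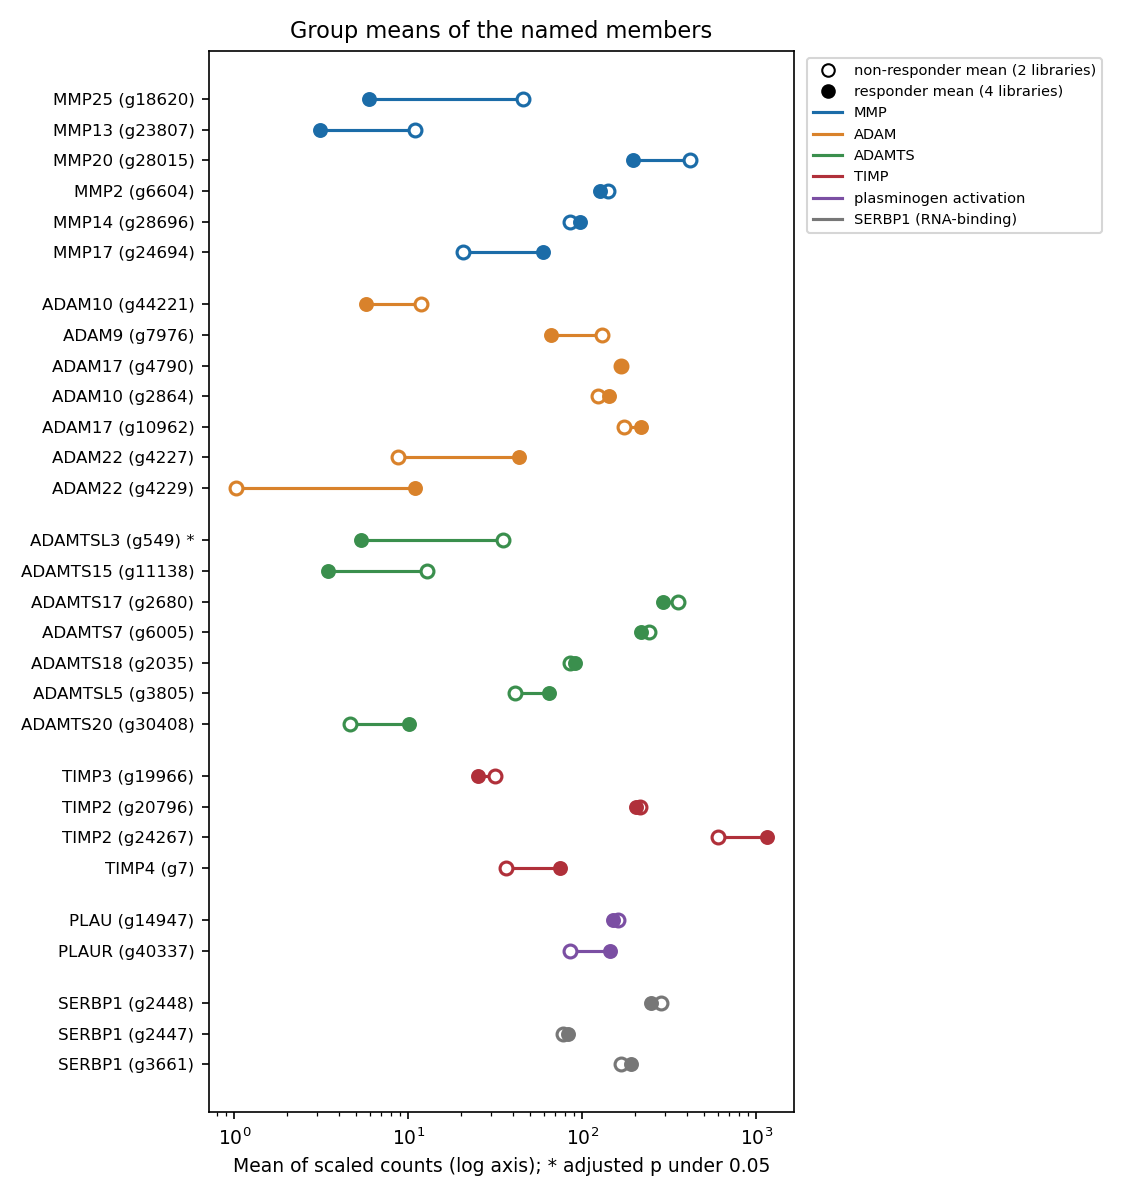
Mean scaled counts (log axis) of the 29 named members in non-responders (open circles, 2 libraries) and responders (filled circles, 4 libraries), coloured by role, with a line joining the means of a model. The star marks ADAMTSL3, at 34.9 and 5.32 the called member; the deposited means carry no error bars.

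TIMP transcripts had higher means in responders for TIMP2 and TIMP4 and lower ones for TIMP3. TIMP2 inhibits MMPs and in mammals helps MMP14 to activate MMP2. Its model g24267 had the highest scaled counts of the members, at 603 in non-responders against 1160 in responders (log2 0.95, unadjusted p = 0.0079, adjusted p = 0.67 by the authors' deposited table). Per kilobase MMP20 (g28015) was higher in both groups, at 651 and 307 against 145 and 279 for g24267. A further TIMP2 model (g20796) had 216 and 204 (log2 -0.08, and 0.033 with both groups rescaled to equal sums). TIMP4 (g7) had 36.3 and 74.8 (log2 1.04, unadjusted p = 0.016, adjusted p = 0.94), and TIMP3, which also binds to the matrix and inhibits ADAMs, had 31.6 and 25.3 (g19966, log2 -0.32, unadjusted p = 0.50), by the authors' deposited table. None of the 4 TIMP models passed over all models.

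Levels of inhibitors relative to proteases were compared per kilobase of transcript, a ratio that a rescaling of the groups leaves as it is. The summed TIMP level was 236 scaled counts per kilobase in non-responders against 383 in responders, and the summed MMP level was 912 and 586. The TIMP to MMP ratio was thus 0.26 in non-responders against 0.65 in responders. Without MMP20 (g28015) the ratios were 0.90 and 1.37, and without TIMP2 (g24267) alone they were 0.10 and 0.18. Without both models they were 0.35 and 0.37. The MMP sum covers the members only. It leaves out stromelysin-3 (MMP11, g4963), whose description lacks the words that define the members and which had 29.1 and 123 scaled counts. These counts are not per kilobase, and at 4541 bases the model would add far less than them to the sums. Values per library were not used, so the spread of these ratios between animals is unknown, and no test was made. Short models weigh heavily on a scale per length. The summed level of ADAM10, for example, was 189 scaled counts per kilobase in non-responders, of which the piece of 122 bases gave 97.6.

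**Figure D3:**
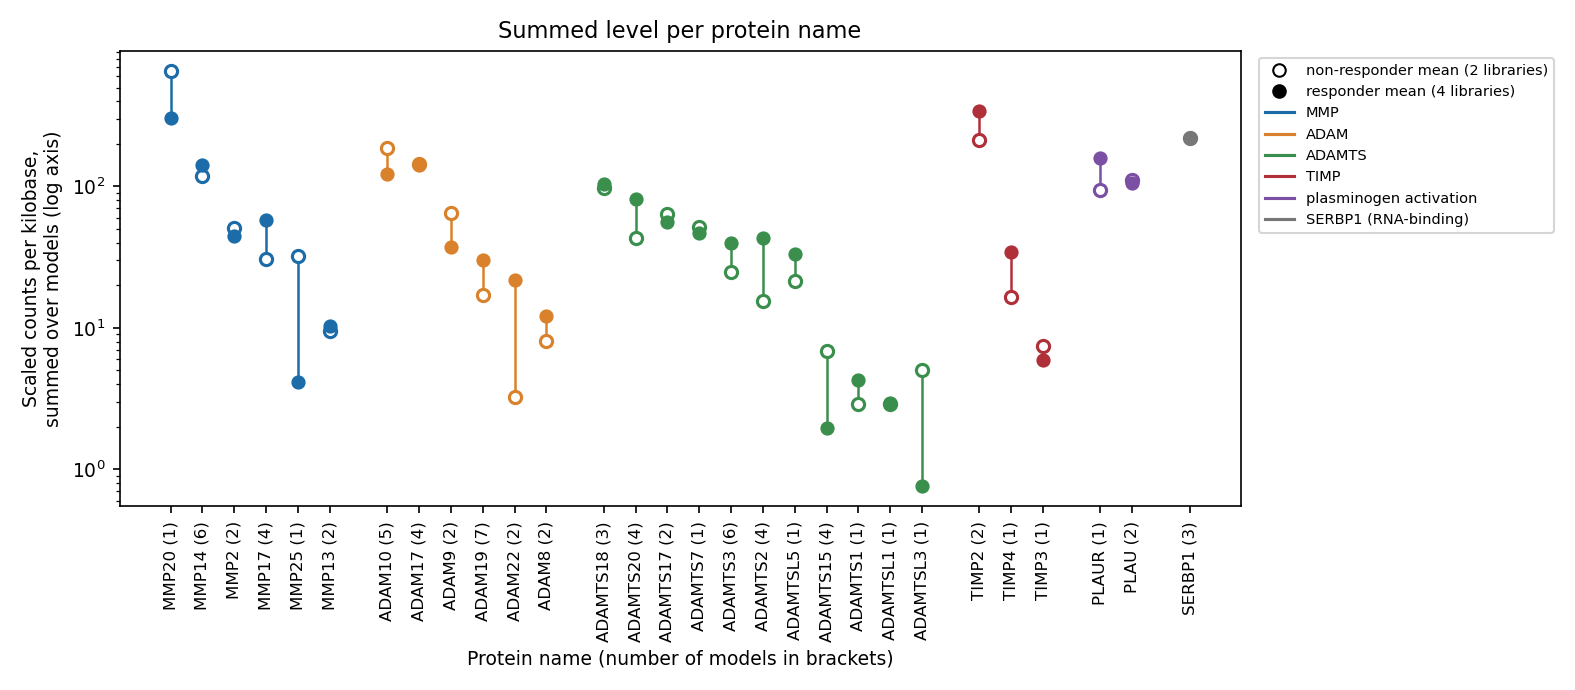
Scaled counts per kilobase (log axis), summed over the models of each protein name that has a model with a mean of at least 5, in non-responders (open) and responders (filled), with the number of models in brackets. MMP20, at 651 and 307, holds the highest level in non-responders and TIMP2, at 212 and 342, in responders, and ADAMTSL3, at 5.03 and 0.77, is among the lowest; 1 name is not drawn.

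Urokinase and its receptor belong to the plasminogen activator system, which feeds into the activation of several MMPs. The urokinase receptor (PLAUR, g40337), which holds urokinase at the cell surface, had 85.2 in non-responders against 145 in responders by the authors' deposited table (log2 0.76, the authors' unadjusted p = 0.51). Urokinase itself (PLAU, g14947) had 160.3 and 151 (log2 -0.09, and 0.022 with both groups rescaled to equal sums). Neither passed. The tissue-type activator (PLAT, g29705), a piece of 278 bases, was listed at 0 in non-responders and at 0.22 in responders, and the model named plasminogen, the substrate of both activators, did not reach a mean of 5. The SERBP1 models had 284 and 248 (g2448), 166 and 191 (g3661) and 77.9 and 82.5 (g2447) by the authors' deposited table, with unadjusted p-values from 0.56 to 0.84.

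Other genes around these proteases were taken from 6 lists, and none of their 173 models passed over all models. At the authors' unadjusted p under 0.05 there were 5 of the 149 with a p (3.36%), against the 3.67% of all models. Each of the 5 had a higher mean in responders, and over all models with a p 2.07% were higher and 1.59% lower at that threshold. Of the 5, 4 are described here, and the last is a collagen I alpha-2 model (g394) listed at 0 in non-responders and at 7.45 in responders. Of the activators of metalloproteinases and plasmin 12 models reached a mean of 5, with 5 above and 7 below a ratio of 1 (median log2 -0.11). The 7 below are all models named PCSK5, so the tally and the median follow 1 name. PCSK6, a proprotein convertase related to furin, had 278 scaled counts in non-responders against 603 in responders by the authors' deposited table (g12353, log2 1.12, unadjusted p = 0.0037, adjusted p = 0.47), and a furin piece of 236 bases (g25622) had 16.3 and 26.9. Other inhibitors and regulators had 10 models, 8 of them above a ratio of 1 (median log2 0.32). Among them alpha-2-antiplasmin, the main plasmin inhibitor of plasma, had 86.2 and 209 (g13038, log2 1.28, the authors' unadjusted p = 0.0014, adjusted p = 0.29) and glia-derived nexin, a serpin that inhibits urokinase, had 1553 and 2356 (g10795, log2 0.60, unadjusted p = 0.10). Of the other glia-derived nexin models, g27074 went the other way at 58.9 and 33.1 (log2 -0.83), and g36867 had 28.3 and 43.9. The astacin family had 6 models at a median of 0.16, with the procollagen C-proteinase BMP1 at 229 and 254 (g7506) and at 3.52 and 6.41 in a further model (g9669).

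The substrate lists were mixed. ADAM substrates and regulators had 16 models, of which 6 lay above a ratio of 1 (median log2 -0.04), with NOTCH3 (g19820) at 19.4 and 11.8 scaled counts and the ADAM10 partner tetraspanin-5 (g7422) at 30.7 and 49.5 by the authors' deposited table. ADAMTS substrates had 7 models at a median of 0.11, all above a ratio of 1, among them fibrillin-1 (g5370) at 32.3 and 39.3. The widest gap was that of brevican, a proteoglycan of the hyaluronan-binding family, with 1.02 and 13.1 (g1084, log2 3.68, the authors' unadjusted p = 0.0035, adjusted p = 0.47). Brevican reached the minimum mean only through responders, so its log2 rests on a non-responder mean near the edge of detection. With both groups rescaled to equal sums every log2 rises by 0.11. Matrix substrates of MMPs had 26 models, 17 of them above a ratio of 1 (median 0.31), where a type IV collagen alpha-3 model (g26614) had 33.7 and 130.1 (log2 1.95, unadjusted p = 0.0049, adjusted p = 0.54) by the authors' deposited table. The basement membrane protein nidogen-1 (g31452) had 18.6 and 38.1. Of the 17 models above, 5 carry the name nidogen-1, and 1 further nidogen-1 model lay below. All 3 fibronectin models that reached the minimum mean lay below (log2 from -0.81 to -0.27). A type IV collagen alpha-6 model (g935) lay below too, at 248 and 198.

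Ovary pieces hold many cell types, and in bulk RNA fewer cells of a type and less RNA per cell cannot be told apart. Oocyte markers had 17 models, all with a mean of at least 5, and 16 of them lay below a ratio of 1 (median log2 -0.39). Their summed means were 670905 scaled counts in non-responders against 448535 in responders. Of the 16 models, 8 are named ZP3 and 4 are named ZP4, so the tally follows few names. GDF9 (g5262) had 2213 and 2258 (log2 0.03), and BMP15 (g4183) had 2572 and 2410 (log2 -0.09). Granulosa and theca markers had 8 of 12 models above a ratio of 1 (median 0.39, summed means 1426 and 1915), stroma and smooth muscle markers 15 of 19 (median 0.27, 5628 and 6590) and leukocyte markers 6 of 9 (median 0.50, 2618 and 2565). Most of the leukocyte sums came from 1 model, CD68 (g2063), with 2521 and 2429. In the stroma and smooth muscle list MYL9 (g11086) had the largest means, 2870 and 2739. Most of the gap between the sums of that list came from collagen I models. These were g7014, at 655 and 964, g9398, at 489 and 879, and g11901, at 584 and 820. The same collagen I models are also in the list of matrix substrates of MMPs. Endothelial markers had 3 of 7 above (median -0.29, summed means 230 and 153). Most of the gap between these sums came from 1 cadherin-5 model (g17569), with 95.4 and 37.4. Of the 4 below, 2 are named cadherin-5, and the rest were VEGF receptor 2 (g8472), at 42.1 and 34.6, and TIE2 (g1122), at 14.9 and 11.9. TIE1 (g2753), at 24.3 and 27.1, and VWF (g357), at 23.8 and 25.3, lay above, as did a further cadherin-5 model. The VWF model is also in the list of ADAMTS substrates. FLT1, COL3A1, FIGLA and STAR matched no model by name, and PECAM1, CSF1R and AMH did not reach a mean of 5. None of the 93 marker models passed over all models. Of the 90 with a p, 5 (5.56%) had an unadjusted p under 0.05, against the 3.67% of all models. Of these 5, 1 was higher and 4 lower in responders, and over all models with a p 2.07% were higher and 1.59% lower. The part of the markers in the values of the members was not tested. The plot of log2 by list sets these markers beside the members.

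Of the 5 marker models with an unadjusted p under 0.05, 4 were lower in responders. Cadherin-5, an adhesion protein of endothelial cells, had 95.4 scaled counts in non-responders against 37.4 in responders by the authors' deposited table (g17569, log2 -1.35, unadjusted p = 0.00072, adjusted p = 0.19). Its piece g38811 had 14.0 and 4.52, whereas its longest model g3545 (5300 bases) went the other way at 6.03 and 7.21 (log2 0.26). The oocyte transcripts ZAR1 (g14809) and ZP4 (g11772) had 21663 against 11238 and 2095 against 1069, with unadjusted p-values of 0.0021 and 0.0029 and adjusted p-values of 0.35 and 0.43 by the authors' deposited table. The egg coat gene ZP3 (g16004) had 101754 and 54239 (log2 -0.91, the authors' unadjusted p = 0.0047). The higher marker model is the collagen I alpha-2 model g394 given above (the authors' unadjusted p = 0.0042). In the other marker lists no model with a mean of at least 5 reached an unadjusted p under 0.05 in the authors' deposited table. The steroid enzyme CYP17A1 had 222 and 556 (g10692) and 179 and 392 (g22995), and 3 of the granulosa and theca models above a ratio of 1 carry its name. The 4 below were 2 models of CYP19A1 and 2 of 3-beta-hydroxysteroid dehydrogenase. Among these, CYP19A1 g9348 had 23.0 and 11.9, and the dehydrogenase model g10190 had 671 and 546. The smooth muscle protein calponin-1 had 169 and 76.1 (g14833) and decorin, a matrix proteoglycan, 45.1 and 96.4 (g8899). Among leukocyte markers coronin-1A had 3.45 and 8.24 (g4014) and SPI1, a transcription factor of blood cells, 21.8 and 35.7 (g13044). The 3 leukocyte models below a ratio of 1 were CD68, PTPRC at 23.7 and 20.9 (g6670) and a further coronin-1A model at 6.89 and 6.47 (g21858).

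**Figure D4:**
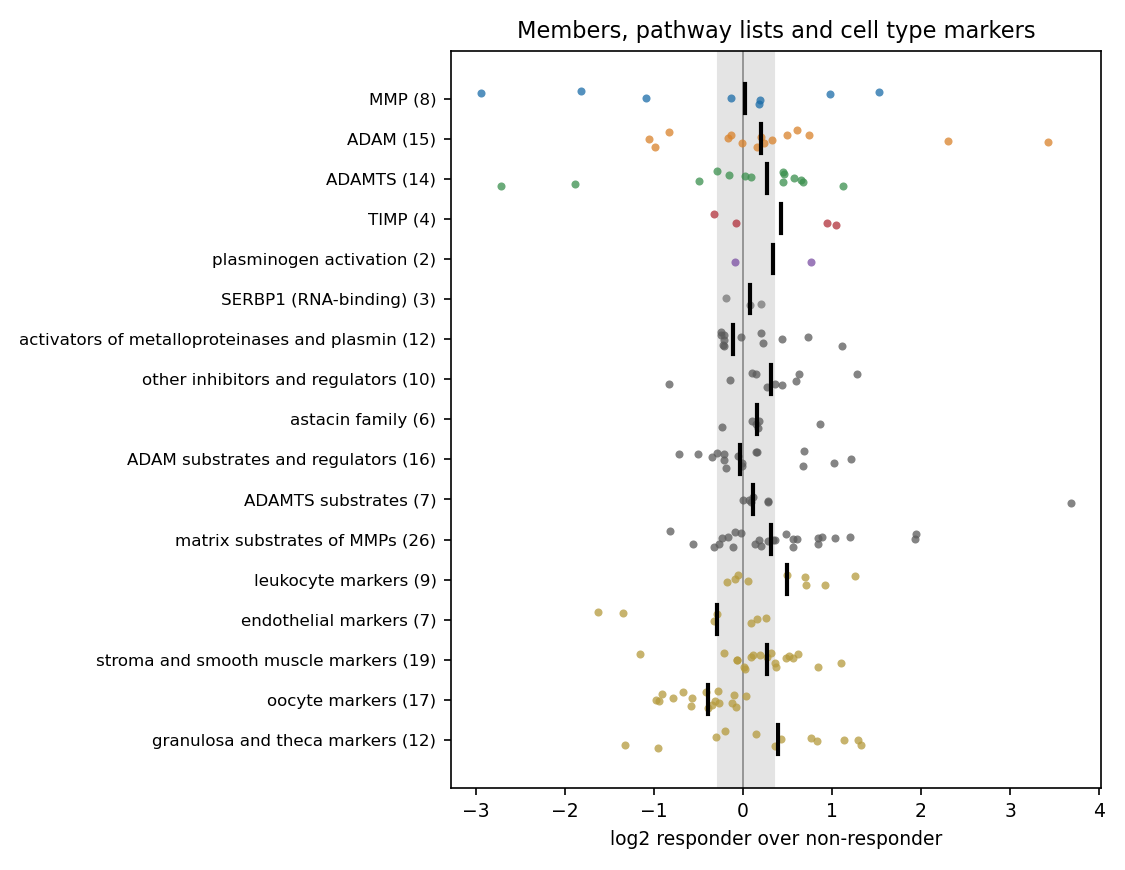
Each point is a model with a mean of at least 5, placed by its log2 of responder over non-responder, in the roles of the members (coloured), the pathway lists (dark grey) and the cell type markers (ochre), with the number of models in brackets. Black bars are medians, and the grey band is the interquartile range of all models (-0.28 to 0.35); the oocyte markers have a median of -0.39, and 1 member is not drawn.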

How the data were processed

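Ovarian mRNA libraries of 6 eels were grouped by the phenotype label into 4 responders and 2 non-responders. One table of the authors' own comparison was used, whose file name credits DESeq; the sources used here do not give its version, an aligner, a counter or a build. Per the file headers, the deposited signal is a base mean, that is counts divided by size factors, over all libraries and per condition. The deposited fold is the ratio of these means, and the authors deposited a p-value and an adjusted p-value per model. The overall mean weights condition A by 2 libraries and B by 4 (largest deviation 3.49e-10), which identifies them as non-responders and responders by their numbers. A further 6 columns of values per library have names that match no library's label. They could be tied to a group only through their values, which was not done, so depth and spread per library were not analysed here.

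Members were found by the words of their description. Calls use the authors' adjusted p under 0.05, and log2 values were computed from their fold. Levels per kilobase divide a mean by the longest transcript. Members and lists were chosen with earlier results of these data known. Per role, the text names called members, the 4 with the smallest p at a mean of at least 5 and the 3 with the highest mean; per other list, the 2 with the smallest p. One member that the rule names is counted but not reported here. SERBP1 was added because its description names another protein. Models named beyond this rule, given as further models of a named protein or for their role, were chosen after their values were seen. Re-adjustment used Benjamini-Hochberg, which was tested on simulated data. No model identifier matched the reference gene table (0 of 45974), so no sequence or coordinate is given. The labels give each library its own animal tag and no batch. Python 3.11.15, pandas 2.3.3 and numpy 2.4.6 were used.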

Additional observations from a re-analysis of the deposited data

How the results depend on the processing

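The number of called members was 1 with p re-adjusted above a minimum mean of 5 and at an adjusted p under 0.1. It was 0 with a minimum mean of 20 or of 50, which removes ADAMTSL3, and 7 at an unadjusted p under 0.05. The median log2 of the members was 0.18 as reported, with a minimum mean of 20 and without SERBP1. It was 0.20 with a minimum mean of 1, 0.14 with one of 50, 0.17 with 1 added to the means, 0.29 with both groups rescaled to equal sums, 0.17 centred on all models and 0.27 with 1 model per name. The rescaling adds 0.11 to the log2 of every model, so the median over all models rises with that of the members. After the data were seen, 2 settings were added, which both gave 0.19: models that the description words miss, and transcripts of at least 1000 bases. Rescaling to equal sums turned the log2 of 3 named models that were not called, ADAM17 g4790 to 0.11, TIMP2 g20796 to 0.033 and PLAU g14947 to 0.022. Count tests, leaving out libraries and a filter on counts were left out, since they need the values per library, whose columns were not assigned to libraries by their values. No paired analysis was made, because each animal gave 1 library and belongs to 1 group, and the labels give no pairing. Depth per library was not used, so differences of low models such as ADAMTSL2 may not be detectable here.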

Other observations

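Some relatives of the members carry descriptions without the words that define them. Stromelysin-3 (MMP11), an MMP that furin-like convertases activate inside the cell, had 29.1 scaled counts in non-responders against 123 in responders by the authors' deposited table (g4963, log2 2.08, unadjusted p = 0.029, adjusted p = 1). Papilin, a matrix glycoprotein with ADAMTS-like repeats, had 12.8 and 34.6 in the model g26734 (log2 1.43, the authors' unadjusted p = 0.039, adjusted p = 1), whereas the papilin model g4672 had 387 and 364 (log2 -0.09). None of them passed over all models, and they were looked up after the values had been seen.

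Models with consecutive identifiers often shared a name. Of 7 such pairs among the members, 5 had the same name, among them ADAMTS18 (g2034 and g2035), ADAMTS5 (g19387 and g19388) and SERBP1 (g2447 and g2448). The other 2 pairs joined ADAMTS8 (g11137) with ADAMTS15 (g11138) and ADAMTS9 (g13061) with ADAMTS20 (g13062). What the order of identifiers stands for is not given in the sources used here.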
